A study of Homo sapiens with 14 samples.

Results

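The zinc finger genes of human chromosome 19 were followed through long-term culture of WI-38, a strain of diploid human lung fibroblasts. A gene was a member when its array row carried 1 symbol, that symbol began with ZNF and a digit, and NCBI RefSeq placed the gene on chromosome 19. Where a gene had more than 1 row, the row with the highest mean over the 14 arrays stood for it, which concerned ZNF616 and ZNF626. The rule gave 237 genes of the 18349 with 1 symbol matched to RefSeq, of which 225 are listed as protein coding, 8 as transcribed pseudogenes and 4 as long non-coding RNAs. The family was chosen by the slope of its members on labelled passage in these same arrays, where several had been seen to decline, so their values along passage are given here as a description.

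All groups are WI-38 cells grown in supplemented MEM with fetal calf serum and passaged weekly at a fixed seeding number, and each group holds 2 arrays of total RNA that the labels call biological duplicates. Primary cells were taken at passage 19. Cells labelled hTERT A, which carry the catalytic subunit of telomerase, were taken at passages 39, 50, 58, 67 and 95, and cells labelled hTERT B at passage 96. The groups are named by letter and passage, from primary and A39 to A95 and B96, and rep1 and rep2 are the replicate numbers of the labels. The sources used here give neither the meaning of the letters A and B nor whether the hTERT cells were a pool or a clone. Values are log2 values as deposited, so a difference of 1 stands for a 2-fold change if the base is 2, and levels are compared between arrays for 1 gene and not between genes.

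Most genes of this family encode proteins with an array of C2H2 fingers that binds DNA, often joined to a KRAB domain. KRAB recruits the corepressor TRIM28, which brings the histone methyltransferase SETDB1 and heterochromatin proteins to the bound site. Many of these repressors bind transposable elements. The genes themselves lie in clusters on chromosome 19 that grew by tandem duplication, and the promoters of several members are known to gain DNA methylation in tumours.

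The labels were set against the data first. TERT stood at 7.07 in primary rep1 and at 11.7 in primary rep2, and at 10.67 to 12.18 in the 12 hTERT arrays, so the level of primary rep2 goes against its label. Of the 14 arrays, 0 correlated best with their label mate. Instead, 5 mutual closest pairs joined neighbouring labels, namely primary rep2 with A39 rep1, A39 rep2 with A50 rep1, A50 rep2 with A58 rep1, A58 rep2 with A67 rep1 and A95 rep2 with B96 rep1, with correlations over all rows of 0.986 to 0.993. Differences within a label could therefore be as large as differences between labels, and every comparison between groups below rests on these labels. Whether the arrays carry the right labels was not tested, and labels shifted by 1 array would change what each slope on labelled passage, group contrast and difference within a label means. All 10 fibroblast markers checked lay above the array median in every array, with a list mean between 11.46 and 12.32. The list means of markers of epithelial cells (5 of 5 measured, 6.35 to 7.01), endothelial cells (5 of 5, 6.90 to 7.38) and blood cells (4 of 5, 5.99 to 6.93) lay lower, and 0 of these markers exceeded the array median on every array. Single markers were high on some arrays, up to 10.76 for TEK on A50 rep2, 9.11 for KRT19 on primary rep1 and 8.61 for HBB on A58 rep1, and their part in the members' values was not tested.

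Across the arrays the members were high on early and low on late ones, with B96 rep2 as the exception. Each member's value was taken minus its own mean over the 14 arrays, and the median over the 237 members was taken on each array. This median deviation was 0.121 and 0.160 in primary, 0.159 and 0.112 in A39, 0.101 and 0.063 in A50, 0.051 and -0.078 in A58, -0.099 and -0.179 in A67, then -0.162 and -0.215 in A95, and -0.216 and 0.168 in B96. The members thus stood above their own means from primary to A58 rep1 and below them from A58 rep2 to B96 rep1, while B96 rep2 stood with the early arrays. In bulk RNA, fewer cells with a transcript and less of that transcript per cell cannot be told apart.

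**Figure D1:**
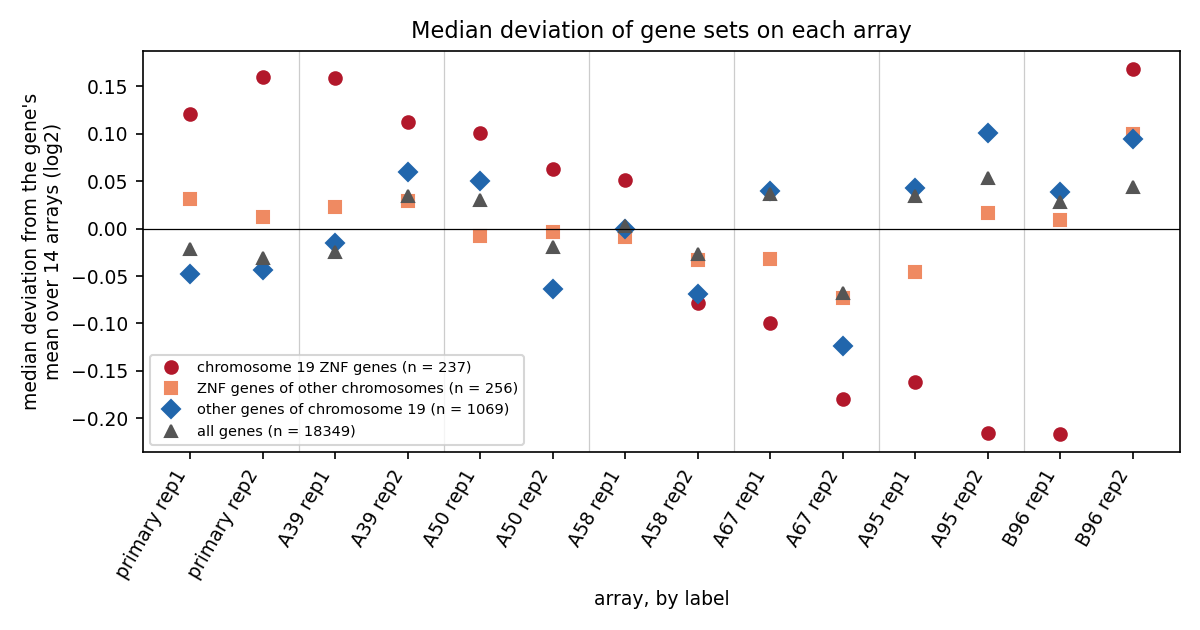
Median deviation from each gene's mean over the 14 arrays (log2, y axis) on each array (x axis, by label), for the 237 ZNF genes of chromosome 19, the 256 ZNF genes of other chromosomes, the 1069 other genes of chromosome 19 and all 18349 genes. The chromosome 19 ZNF genes run from 0.160 down to -0.216 and return to 0.168 in B96 rep2, while all genes stay between -0.068 and 0.053.

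The sets compared with the family spanned narrower ranges. Only the family was chosen by its slope on labelled passage in these same arrays, so the differences between sets are a description. The median deviation over the 256 ZNF genes of other chromosomes stayed between -0.073 and 0.10, that over the 1069 other genes of chromosome 19 between -0.124 and 0.101, and that over all genes between -0.068 and 0.053. The share of members above their own mean was 77.6% in A39 rep1, 60.3% in A58 rep1, 33.8% in A58 rep2, 25.7% in A67 rep2, 26.6% in B96 rep1 and 73.8% in B96 rep2. Over all genes this share lay between 38.8% and 57.4% on the 14 arrays. A95 rep2 held the lowest value of 62 members (26.2%, against 14% of all genes) and B96 rep1 that of 34 (14.3%, against 7.8%).

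**Figure D2:**
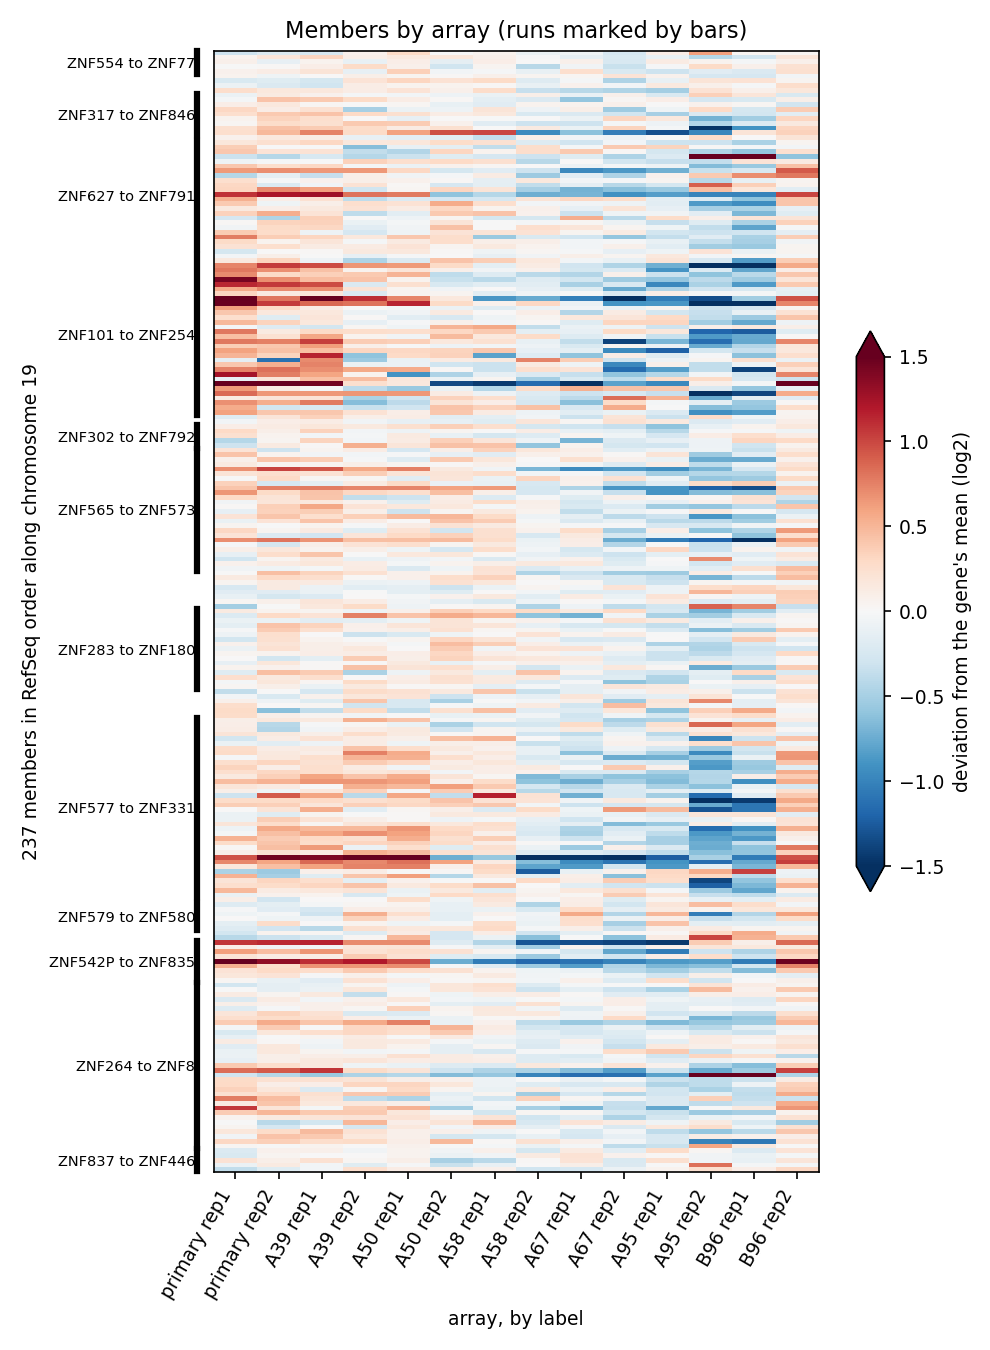
Deviation of each of the 237 members from its own mean (log2, colour, cut at -1.5 and 1.5) on the 14 arrays (columns, by label), with members in RefSeq order along chromosome 19 (rows) and runs of neighbouring members marked by bars. Red rows on the left turn blue on the right in most runs, at different arrays for different genes, and the last column, B96 rep2, is red again in most rows.

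Along the arrays labelled A, 179 of 237 members had a negative slope on labelled passage (75.5%, against 43.4% of all genes). The median slope was -0.06 log2 per 10 passages in the members and 0.01 in all genes, -0.008 in the ZNF genes of other chromosomes and 0.013 in the other genes of chromosome 19. With limma and Benjamini-Hochberg adjustment over all rows, 10 members fell and 0 rose, where 0.281% of all rows passed, 0.239% falling and 0.0416% rising. Since this slope is what the family was proposed for, nothing is read from these counts. The 10 calls also depend on single arrays: 0 members were called without A39 rep1, A39 rep2, A50 rep1, A50 rep2, A58 rep1, A58 rep2, A67 rep1 or A95 rep2, 10 without A67 rep2 and 28 without A95 rep1. Over all rows, against 81 with every array, 1 was called without A50 rep1, 72 without A67 rep2, 571 without A95 rep1 and 0 without each of the other 7. The median slope moved less than the calls and stayed between -0.0695 and -0.0509. Single slopes could move more, mostly with the A95 arrays. That of ZNF506 was -0.302 without A95 rep2 and -0.434 without A95 rep1. For ZNF626 it was -0.356 without A95 rep2 and -0.652 without A95 rep1.

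The 10 that fell are ZNF506 and ZNF626 of one cluster, ZNF461, ZNF790, ZNF345, ZNF420 and ZNF570 of another, ZNF468 and ZNF816 of a further one, and ZNF329. Their slopes ran from -0.51 ± 0.085 (SE, 10 arrays) per 10 passages for ZNF626 to -0.14 ± 0.024 for ZNF329, with adjusted p-values of 0.0389 to 0.0482 by limma.

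ZNF506 had values of 8.11 and 8.43 in primary, 8.36 and 8.04 in A39, 8.02 and 7.67 in A50, 7.23 and 7.50 in A58, 7.09 and 6.93 in A67, then 6.66 and 5.81 in A95, and 5.54 and 7.95 in B96. It declined by small amounts over the whole course, reached its lowest level on B96 rep1, and on B96 rep2 lay within the range of the primary to A50 arrays. Its slope was -0.36 ± 0.043 (SE) with an adjusted p of 0.0389 by limma.

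ZNF626 had values of 9.03 and 8.59 in primary, 8.41 and 8.36 in A39, 8.69 and 7.83 in A50, 7.61 and 7.86 in A58, 7.46 and 6.65 in A67, then 6.67 and 4.76 in A95, and 5.44 and 8.28 in B96. The other row of ZNF626 stood at 8.44 and 7.86 in primary and at 6.48 and 6.41 in A95, with 6.39 and 7.57 in B96. Both rows were low on the late arrays and high on B96 rep2, but the drop from A95 rep1 to A95 rep2 on the brighter row was absent from the other.

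ZNF570 and ZNF790 lie in the same run and behaved alike over the late arrays. ZNF570 had values of 7.94 and 8.05 in primary, 7.92 and 7.70 in A39, 7.70 and 7.72 in A50, 7.52 and 7.15 in A58, 7.36 and 6.50 in A67, then 6.21 and 6.06 in A95, and 5.74 and 7.85 in B96. ZNF790 had values of 7.58 and 7.92 in primary, 7.93 and 7.90 in A39, 7.90 and 7.77 in A50, 7.81 and 6.91 in A58, 6.70 and 6.30 in A67, then 6.28 and 5.95 in A95, and 5.84 and 7.56 in B96. ZNF790 held its level up to A58 rep1 and lay lower from A58 rep2 on, and ZNF570 dropped most between A67 rep1 and A67 rep2. ZNF382, known as a repressor silenced by promoter methylation in tumours, sits near them and gave 6.20 and 6.53 in primary, 6.45 and 6.09 in A39, 6.27 and 5.66 in A50, 5.46 and 4.83 in A58, 4.57 and 4.67 in A67, then 4.60 and 4.83 in A95, and 5.26 and 5.80 in B96. Its slope of -0.29 ± 0.070 (SE) missed the threshold, with an adjusted p of 0.0882 by limma.

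Other members differed most between 2 arrays of the same label. From A50 rep1 to A50 rep2, 6 members were lower by at least 1 log2 (2.53%, where 1.3% of all genes were), and 0 were higher by that much, where 1.42% of all genes were. They were ZNF415, ZNF667-AS1, ZNF844, ZNF730, ZNF418 and ZNF677, the last 2 named here after their values were seen or for their known methylation in tumours. From A58 rep1 to A58 rep2, 6 members were lower and 0 higher, where 1.37% and 1.65% of all genes were, among them ZNF415 again and ZNF846. From A67 rep1 to A67 rep2, 3 members were lower and 1 was higher, where 0.354% and 0.561% of all genes were, and between the primary arrays 1 was lower and 1 higher, where 0.719% and 1.71% of all genes were.

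ZNF415 had values of 6.89 and 7.38 in primary, 7.34 and 7.92 in A39, 7.81 and 5.20 in A50, 5.36 and 4.34 in A58, 4.46 and 4.43 in A67, then 4.69 and 5.45 in A95, and 4.88 and 6.88 in B96. Every array up to A50 rep1, and B96 rep2, lay at or above 6.88, and the other arrays lay at or below 5.45. ZNF347, its neighbour, stayed between 7.55 and 7.82 up to A50 rep2, was 7.08 on A58 rep1 and 6.31 on A58 rep2, lay between 5.81 and 6.19 on the next 5 arrays, and was 7.99 on B96 rep2. The 2 neighbours therefore left their early level on different arrays.

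ZNF667-AS1, a long non-coding RNA transcribed beside ZNF667 and reported as methylated in several cancers, showed a sharp step. Its values were 8.30 and 7.93 in primary, 7.71 and 7.80 in A39, 7.59 and 5.86 in A50, 5.55 and 5.42 in A58, 5.49 and 5.60 in A67, then 5.74 and 5.77 in A95, and 5.55 and 8.07 in B96. ZNF667 itself had a narrower range, between 5.70 and 6.62 on all 14 arrays. It was 6.34 to 6.62 up to A50 rep1 and 5.70 to 6.09 from A50 rep2 to A67 rep2. In A95 it was 6.36 and 6.51, and in B96 5.93 and 6.55. ZNF471, the next gene along and another member known to be methylated in tumours, was 6.14 to 6.57 up to A50 rep1, 5.05 to 5.85 from A50 rep2 to B96 rep1, and 6.62 on B96 rep2.

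ZNF844 followed the same step, with values of 7.08 and 7.22 in primary, 7.27 and 6.81 in A39, 6.77 and 5.39 in A50, 5.56 and 5.26 in A58, 5.30 and 5.09 in A67, then 5.17 and 5.0 in A95, and 4.99 and 7.0 in B96. ZNF154, whose promoter is methylated in many tumour types, had values of 7.37 and 7.46 in primary, 7.61 and 6.83 in A39, 6.73 and 6.23 in A50, 6.08 and 6.06 in A58, 5.89 and 5.71 in A67, then 6.21 and 5.78 in A95, and 6.0 and 7.56 in B96. The values of ZNF154 went down in smaller steps than those of ZNF844, and both were as high on B96 rep2 as on the primary arrays or nearly so. None of these had a slope past the threshold by limma: the adjusted p was 0.222 for ZNF415, 0.20 for ZNF667-AS1, 0.114 for ZNF844 and 0.181 for ZNF154.

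**Figure D3:**
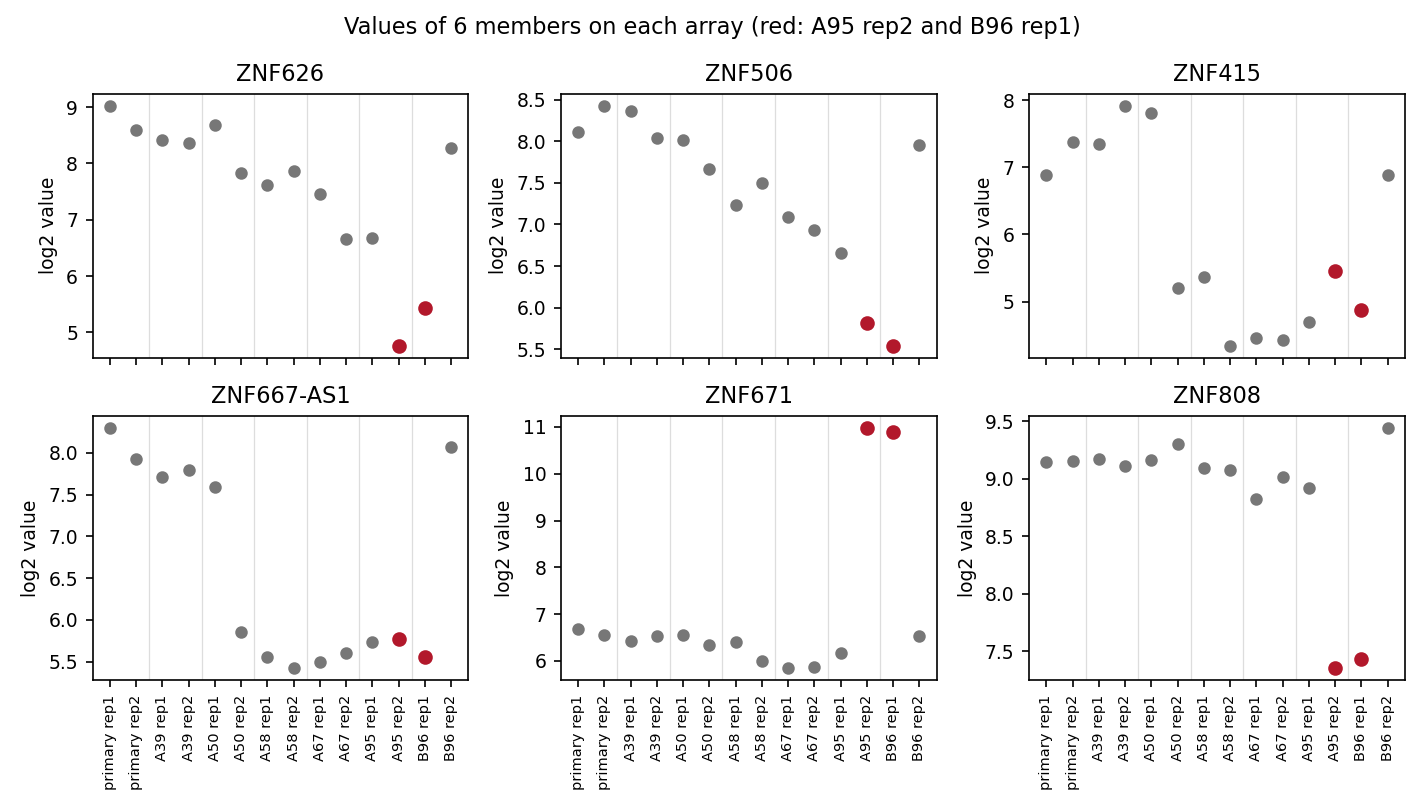
Log2 value (y axis) on each of the 14 arrays (x axis, by label) of ZNF626, ZNF506, ZNF415, ZNF667-AS1, ZNF671 and ZNF808, with A95 rep2 and B96 rep1 in red. ZNF626 and ZNF506 decline over the course, ZNF415 and ZNF667-AS1 are low from A50 rep2 to B96 rep1, and ZNF671 is high and ZNF808 low on the red arrays.

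A95 rep2 and B96 rep1, the late mutual pair, carried a set of changes of their own. On both arrays 57 members lay below all other 12 arrays (24.1%, where 12.7% of all genes did) and 14 lay above them (5.91%, where 14.6% of all genes did). With a gap of at least 0.5 log2 to the nearest other array, 11 lay below (4.64% of members, 2.58% of all genes) and 2 above (0.844% and 1.61%). With a gap of at least 1 log2 to the nearest other array, 4 members lay below (1.69% of members, 0.61% of all genes) and 2 above (0.844% of members, 0.48% of all genes). The 4 are ZNF808, ZNF626, ZNF91 and ZNF738, with gaps of 1.39, 1.21, 1.03 and 1.01, the last named after its values were seen. The gap of ZNF626 is that of its brighter row only, since the other row stood at 6.41 and 6.39 on the pair and at 6.48 on A95 rep1. The 2 are ZNF671 and ZNF441, with gaps of 4.21 and 1.98. Within the label A95, 9 members were lower and 7 higher by at least 1 log2 on rep2 than on rep1, where 4.38% and 3.22% of all genes were. The arrays of this pair were compared with the rest as single arrays and no test was made.

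ZNF671, known as a target of promoter methylation in tumours, had values of 6.68 and 6.55 in primary, 6.42 and 6.52 in A39, 6.55 and 6.33 in A50, 6.40 and 5.99 in A58, 5.84 and 5.86 in A67, then 6.17 and 10.98 in A95, and 10.89 and 6.52 in B96. The other 12 arrays never exceeded 6.68, so ZNF671 was high on these 2 arrays and on none of the others. ZNF441 had values of 7.23 and 7.12 in primary, 7.31 and 7.12 in A39, 7.23 and 7.37 in A50, 7.29 and 7.24 in A58, 7.37 and 7.08 in A67, then 7.34 and 9.66 in A95, and 9.35 and 6.94 in B96. The positive slopes of both genes, 0.38 ± 0.198 and 0.23 ± 0.093 (SE), come from A95 rep2 and did not pass the threshold, with adjusted p-values of 0.32 and 0.226 by limma.

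The genes beside them did not share these values. ZNF154, next to ZNF671 on one side, was 5.78 and 6.0 on the late pair against 5.71 to 7.61 elsewhere, and ZNF776, on the other side, was 7.82 and 7.88 against 7.87 to 8.49. Beside ZNF441, ZNF823 was 6.80 and 6.67 against 6.81 to 7.66, and ZNF491, on the other side, was 6.11 and 6.67 against 6.05 to 6.82. Beyond ZNF491, ZNF440 was 6.99 and 7.09 against 7.56 to 8.08, ZNF439 5.92 and 6.02 against 5.29 to 7.17, and ZNF69 8.53 and 8.84 against 7.59 to 8.93. ZNF440 and, by a small margin, ZNF823 were thus below all other arrays where ZNF441 was above them. ZNF491, ZNF439 and ZNF69 lay inside their ranges elsewhere.

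ZNF808, a KRAB repressor of endogenous retroviral elements required for development of the human pancreas, was low on the late pair. It had values of 9.14 and 9.15 in primary, 9.17 and 9.11 in A39, 9.16 and 9.30 in A50, 9.09 and 9.07 in A58, 8.82 and 9.01 in A67, then 8.92 and 7.35 in A95, and 7.43 and 9.44 in B96. Its neighbour ZNF701 was 6.38 and 6.05 on the late pair against 6.83 to 7.54 elsewhere, and ZNF137P, a pseudogene, 5.63 and 5.84 against 6.71 to 7.56. ZNF83, a few genes further, was 9.62 and 9.63 against 9.22 to 9.58, so the low values did not extend to it. On the other side of ZNF808, ZNF578 was 3.31 and 4.29 against 3.75 to 5.63, and ZNF534 was 5.14 and 5.30 against 4.91 to 5.71. Neither was thus below all other arrays on both arrays of the pair.

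The promoters of some genes with a step or a late change, and of some neighbours, are shown. The reason is that the study's title concerns differentially methylated regions. Methylation at CpG dinucleotides of a promoter is a known mark of silenced members. Other genes with a step or a late change, among them ZNF667-AS1, ZNF844, ZNF626 and ZNF91, are not shown. Methylation itself was not measured on these arrays. RefSeq promoter windows of GRCh38.p14 were matched for 204 of the 237 members by gene ID, with the RefSeq window listed first used for the 36 members that have several. Each line gives the 250 bases before the start site, 5′ to 3′ on the gene's own strand, with CG dinucleotides in capitals.
ZNF671, chr19:57727625-57727874, minus strand: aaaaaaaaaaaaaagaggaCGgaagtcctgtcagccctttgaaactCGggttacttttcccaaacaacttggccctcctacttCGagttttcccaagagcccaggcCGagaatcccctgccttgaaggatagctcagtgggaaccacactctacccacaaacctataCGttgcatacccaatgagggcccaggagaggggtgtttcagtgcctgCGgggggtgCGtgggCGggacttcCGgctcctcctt
ZNF154, chr19:57709205-57709454, minus strand: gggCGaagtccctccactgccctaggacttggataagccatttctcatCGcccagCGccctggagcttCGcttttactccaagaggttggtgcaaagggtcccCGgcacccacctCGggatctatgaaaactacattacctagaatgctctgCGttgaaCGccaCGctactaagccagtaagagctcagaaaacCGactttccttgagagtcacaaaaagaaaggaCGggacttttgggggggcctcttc
ZNF441, chr19:11766750-11766999, plus strand: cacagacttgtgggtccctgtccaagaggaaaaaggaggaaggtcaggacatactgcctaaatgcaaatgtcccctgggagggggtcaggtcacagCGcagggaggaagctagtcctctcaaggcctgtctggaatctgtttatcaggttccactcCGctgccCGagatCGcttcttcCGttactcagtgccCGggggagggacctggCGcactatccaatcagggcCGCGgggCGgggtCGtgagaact
ZNF440, chr19:11814023-11814272, plus strand: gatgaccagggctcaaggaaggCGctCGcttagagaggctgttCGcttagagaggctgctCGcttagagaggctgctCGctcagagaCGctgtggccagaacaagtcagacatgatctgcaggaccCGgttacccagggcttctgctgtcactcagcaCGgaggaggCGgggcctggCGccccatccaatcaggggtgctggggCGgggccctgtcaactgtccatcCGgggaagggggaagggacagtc
ZNF415, chr19:53132911-53133160, minus strand: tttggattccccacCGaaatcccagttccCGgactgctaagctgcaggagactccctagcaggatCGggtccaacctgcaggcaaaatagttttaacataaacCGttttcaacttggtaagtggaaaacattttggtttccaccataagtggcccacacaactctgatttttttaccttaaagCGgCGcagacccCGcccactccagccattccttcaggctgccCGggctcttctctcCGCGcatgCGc
ZNF808, chr19:52527418-52527667, plus strand: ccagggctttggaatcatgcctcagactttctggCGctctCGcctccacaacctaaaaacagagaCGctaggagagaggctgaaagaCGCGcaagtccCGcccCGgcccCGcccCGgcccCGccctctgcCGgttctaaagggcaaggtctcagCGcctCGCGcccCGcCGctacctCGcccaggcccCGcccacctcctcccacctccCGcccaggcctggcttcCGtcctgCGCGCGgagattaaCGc
The stretch holds 9 CG dinucleotides for ZNF671, 11 for ZNF154, 11 for ZNF441, 12 for ZNF440, 11 for ZNF415 and 24 for ZNF808. ZNF671 and ZNF154, neighbours of which only ZNF671 was high on the late pair, thus have similar counts. In the whole window of 300 bases, members had a median of 20 CG dinucleotides (range 2 to 49) and all genes 23. The 75 members with the fewest (at most 17) had a median slope of -0.066, the 67 in the middle -0.058 and the 62 with the most (25 or more) -0.026, and negative slopes numbered 61, 51 and 44.

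The family was next described in order along the chromosome. Members with at most 3 other protein-coding genes between them were joined into runs, and 12 runs of at least 5 members held 212 of the 237, with 25 outside. The cytobands were not used here. The longest runs reach from ZNF577 to ZNF331 (38 members), from ZNF264 to ZNF8 (35), from ZNF101 to ZNF254 (34), from ZNF565 to ZNF573 (26) and from ZNF627 to ZNF791 (23).

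The runs differed in slope. The median slope was -0.147 from ZNF542P to ZNF835 (7 of 9 below 0), -0.146 from ZNF577 to ZNF331 (33 of 38), -0.097 from ZNF101 to ZNF254 (29 of 34) and -0.083 from ZNF283 to ZNF180 (14 of 17). It was -0.066 from ZNF302 to ZNF792 (5 of 5), -0.065 from ZNF317 to ZNF846 (6 of 9), -0.061 from ZNF627 to ZNF791 (17 of 23), -0.054 from ZNF565 to ZNF573 (23 of 26) and -0.041 from ZNF264 to ZNF8 (27 of 35). It was 0.006 from ZNF554 to ZNF77 (2 of 5), 0.016 from ZNF579 to ZNF580 (2 of 6) and 0.018 from ZNF837 to ZNF446 (0 of 5), and the 25 members outside runs had -0.004 (14 of 25). Each of the 8 runs with 9 or more members thus had a negative median, as did 1 of the 4 runs with 5 or 6 members.

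**Figure D4:**
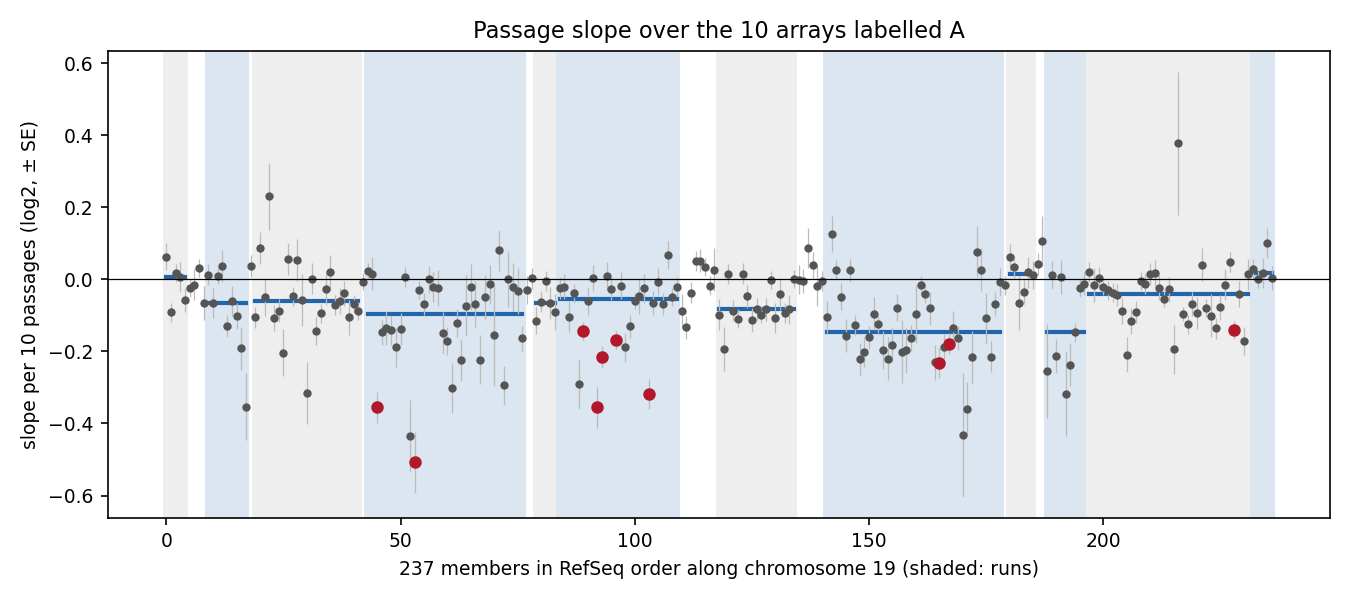
Slope per 10 passages over the 10 arrays labelled A (log2, ± SE, y axis) of the 237 members in RefSeq order along chromosome 19 (x axis, rank), with runs shaded in alternating colours and a bar at each run's median. Red points are the 10 members past the threshold, and 179 of the 237 points lie below 0.

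The runs also differed in when they moved. In the run from ZNF101 to ZNF254, the median deviation was already highest in primary rep1 (0.607), was 0.372 in primary rep2 and 0.459 in A39 rep1, and was 0.053 in A39 rep2. It reached -0.365 in A95 rep2 and -0.542 in B96 rep1 and was 0.178 in B96 rep2. In the run from ZNF577 to ZNF331 it stayed between 0.142 and 0.292 up to A58 rep1, was -0.132 in A58 rep2, and reached -0.552 in A95 rep2, with 0.245 in B96 rep2. The first of these runs therefore left its highest level by A39 rep2, and the second between A58 rep1 and A58 rep2.

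Among the members of the run from ZNF101 to ZNF254 are ZNF91 and ZNF93, KRAB repressors of SVA and L1 retrotransposons. ZNF91 had values of 8.37 and 8.18 in primary, 8.18 and 8.19 in A39, 8.18 and 7.65 in A50, 7.45 and 7.33 in A58, 7.22 and 7.28 in A67, then 7.18 and 5.92 in A95, and 6.15 and 8.08 in B96. ZNF91 held its early level to A50 rep1, lay lower from A50 rep2, and was lowest on the late pair; its slope of -0.29 ± 0.054 (SE) had an adjusted p of 0.0548 by limma. ZNF93 ranged from 7.78 to 8.20 up to A50 rep1, from 6.89 to 7.56 from A50 rep2 to B96 rep1, and was 7.89 on B96 rep2.

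ZNF730 and ZNF737 had the widest courses in that run after ZNF626. ZNF730 had values of 8.11 and 7.36 in primary, 7.30 and 6.10 in A39, 6.01 and 4.49 in A50, 4.41 and 4.69 in A58, 4.33 and 5.04 in A67, then 4.88 and 5.94 in A95, and 5.82 and 7.38 in B96. It was lowest in the middle of the course and not at its end. ZNF737 had values of 7.61 and 6.63 in primary, 7.35 and 6.93 in A39, 6.55 and 5.98 in A50, 4.95 and 5.07 in A58, 4.80 and 4.29 in A67, then 4.77 and 4.49 in A95, and 5.30 and 6.78 in B96. Its level on B96 rep2 lay within the primary and A39 range.

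From A39 rep1 to A39 rep2, 6 members were lower by at least 1 log2 and 0 were higher, where 1.32% and 0.736% of all genes were. The 6 are ZNF730, ZNF90, ZNF208, ZNF257 and ZNF681 of this run, and ZNF578 of another. ZNF208, ZNF257 and ZNF681 are named after their values were seen. ZNF90 was 7.09 and 7.02 in primary and 6.94 on A39 rep1, and 5.0 to 6.35 on all later arrays, B96 rep2 included at 6.35. ZNF429, another member of the run, was 5.53 to 6.41 up to A58 rep1, 3.98 to 5.26 from A58 rep2 to B96 rep1 and 6.10 on B96 rep2.

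A short sequence recurs in the promoters of this run and of 2 others. The word TCCAATCA, which contains the CCAAT box bound by the factor NF-Y, was chosen for its frequency in the members' windows, so its share is a description. Searched on both strands (TCCAATCA or TGATTGGA), it was present in 47 of 204 member windows (23.0%), in 6.57% of those of ZNF genes on other chromosomes, in 0.816% of those of other chromosome 19 genes and in 1.73% of those of all genes. It was found in 27 of 27 matched windows from ZNF101 to ZNF254, in 16 of 20 from ZNF627 to ZNF791 and in 4 of 5 from ZNF554 to ZNF77, and in none of the matched windows of the other 9 runs or outside them. All 71 matches lay upstream of the start and on the gene's own strand, with a median centre 55 bases upstream. The stretches of 32 bases below, from GRCh38.p14 on the gene's strand, show the word in capitals in some of the members whose values are given here.
ZNF91, chr19:23395511-23395542, minus strand: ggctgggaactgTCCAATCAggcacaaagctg
ZNF626, chr19:20661639-20661670, minus strand: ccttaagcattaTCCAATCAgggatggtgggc
ZNF626, chr19:20661610-20661641, minus strand: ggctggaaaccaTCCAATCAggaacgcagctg
ZNF737, chr19:20565849-20565880, minus strand: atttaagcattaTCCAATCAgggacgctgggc
ZNF737, chr19:20565820-20565851, minus strand: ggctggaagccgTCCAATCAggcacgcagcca
ZNF93, chr19:19900849-19900880, plus strand: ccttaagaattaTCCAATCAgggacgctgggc
ZNF93, chr19:19900877-19900908, plus strand: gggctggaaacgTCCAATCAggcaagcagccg
ZNF90, chr19:20077905-20077936, plus strand: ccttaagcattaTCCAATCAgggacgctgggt
ZNF90, chr19:20077934-20077965, plus strand: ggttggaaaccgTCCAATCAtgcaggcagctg
ZNF730, chr19:23116960-23116991, plus strand: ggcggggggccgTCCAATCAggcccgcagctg
ZNF429, chr19:21505560-21505591, plus strand: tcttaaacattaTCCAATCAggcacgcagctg
ZNF441, chr19:11766953-11766984, plus strand: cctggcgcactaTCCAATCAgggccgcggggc
ZNF563, chr19:12333734-12333765, minus strand: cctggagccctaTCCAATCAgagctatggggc
ZNF626, ZNF737, ZNF93 and ZNF90 carry the word at more than 1 position in similar surrounding sequence. ZNF441 carries it too and was high on the late pair, and ZNF563 carries it and had a slope of 0.02. ZNF69, whose stretch is not shown, also carries it and had a slope of 0.06.

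**Figure D5:**
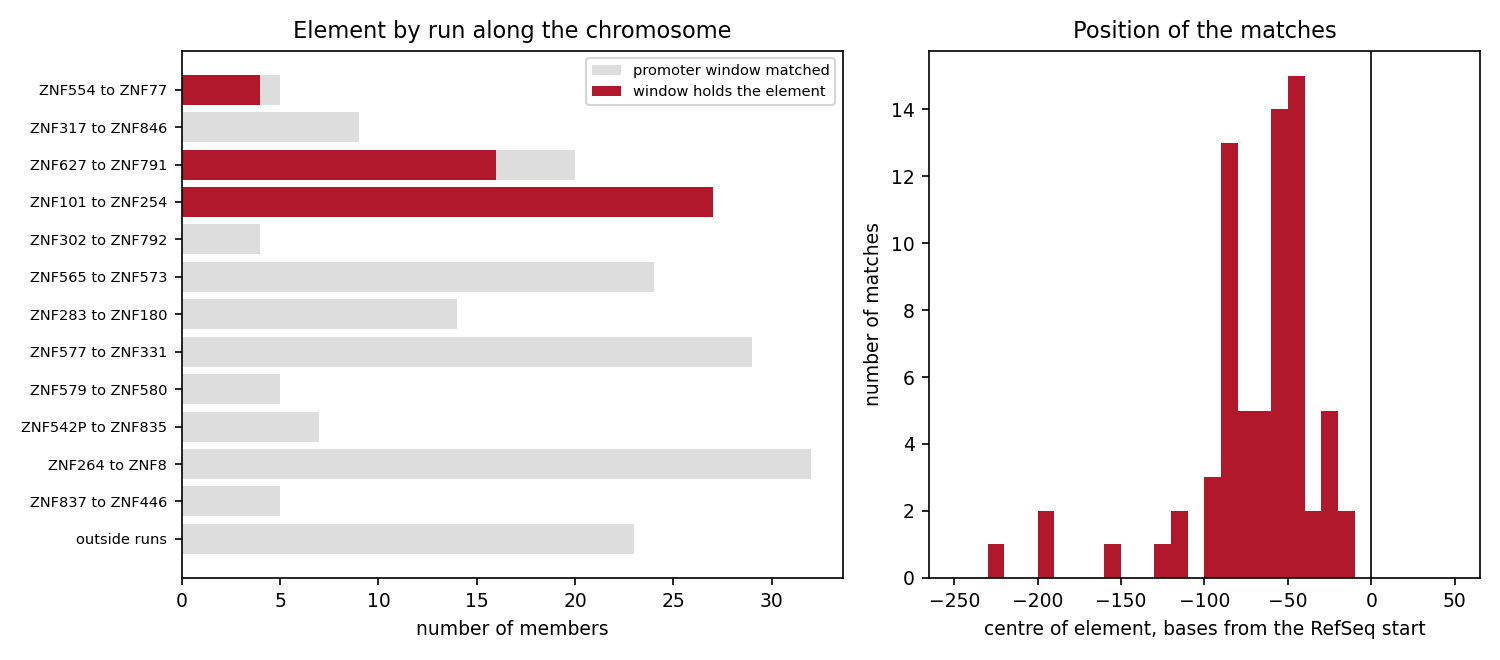
Left, number of members with a matched RefSeq promoter window (grey) and with TCCAATCA in it on either strand (red) in each run along chromosome 19; right, number of matches (y axis) by the distance of their centre from the RefSeq start (x axis, bases). The word is in 27 of 27 windows from ZNF101 to ZNF254, and 64 of the 71 matches lie within 100 bases upstream.

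Members with the word had a median slope of -0.069 (38 of 47 below 0) and those without it -0.044 (118 of 157). Their median difference between B96 and primary was -0.48 against -0.135, their median range over the 14 arrays was 1.31 log2 against 0.89, and their windows held a median of 13 CG dinucleotides against 22. These values cannot be told apart from membership of the runs, which carry the word almost as wholes.

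The comparison of B96 with primary uses none of the A arrays in its difference, and with limma 0 members and 0.0% of all rows tested passed the threshold. At an unadjusted p under 0.05, 31 members were lower and 6 higher (13.1% and 2.5% of members), where 1.71% and 5.15% of all rows were. The median difference was -0.18 in the members, with 172 of 237 lower (72.6%), against 0.065 and 40.8% in all genes. It was 0.018 in the ZNF genes of other chromosomes and 0.11 in the other genes of chromosome 19. The difference rests on B96 rep1, the closest partner of A95 rep2: the median was 0.0 without B96 rep1 and -0.335 without B96 rep2.

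The 3 largest negative differences between B96 and primary with no overlap of the groups were those of ZNF626, ZNF506 and ZNF729. ZNF626 differed by -1.95 ± 0.81 (SE) on the log2 scale, ZNF506 by -1.52 ± 0.59 and ZNF729 by -1.39 ± 0.51, with an adjusted p of 0.695 by limma for each. ZNF729 had 6.77 and 6.86 in primary and 4.64 and 6.21 in B96. Higher were ZNF69, with 7.71 and 8.0 in primary and 8.84 and 8.93 in B96, ZNF818P, a pseudogene, with 6.35 and 6.28 against 7.85 and 6.74, and ZNF444, with 8.93 and 9.03 against 9.87 and 9.74. ZNF69 and ZNF444 were high on both B96 arrays, whereas the low values of ZNF626, ZNF506 and ZNF729 were mostly on B96 rep1. By run, the median difference was -0.723 from ZNF101 to ZNF254 (32 of 34 lower) and -0.415 from ZNF627 to ZNF791 (18 of 23). It lay between -0.28 and -0.12 in 6 further runs and was -0.005 from ZNF302 to ZNF792 (3 of 5 lower). It was above 0 from ZNF554 to ZNF77 (0.05, 2 of 5 lower), from ZNF579 to ZNF580 (0.192, 1 of 6) and from ZNF837 to ZNF446 (0.03, 2 of 5), and in the members outside runs (0.085, 10 of 25).

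The 2 arrays labelled B96 stood far apart in this family. From B96 rep1 to B96 rep2, 38 members were higher by at least 1 log2 (16.03%, where 4.31% of all genes were) and 4 were lower (1.69%, where 2.84% of all genes were). The 4 are ZNF671, ZNF441, ZNF428 and ZNF818P. Between A95 rep2 and B96 rep1, arrays of different labels, only ZNF846 was higher and ZNF729 lower by that much on B96 rep1, where 0.174% and 0.229% of all genes were.

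For A39 against primary, 0 members and 0.0% of all rows tested passed the threshold with limma, and 2 members (0.8%) had an unadjusted p under 0.05, where 1.2% of all rows did. The median difference was -0.005, with 119 of 237 members lower. The largest negative differences without overlap were those of ZNF730, ZNF90 and ZNF814, at -1.03, -0.71 and -0.70. The largest rises without overlap were those of ZNF818P, by 0.60, ZNF563, by 0.53, and ZNF428. ZNF814 had 8.47 and 8.17 in primary and 7.90 and 7.33 in A39. ZNF563 had 5.39 and 5.19 in primary against 6.0 and 5.65 in A39. None of these was called, and primary rep2 has the TERT level of an hTERT array.

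For A95 against A39, 0 members and 0.0% of all rows passed the threshold with limma, while 73 members were lower and 0 higher at an unadjusted p under 0.05, where 4.33% and 4.88% of all rows were. The median difference was -0.29, with 180 of 237 lower, against 0.05 in all genes. This contrast shares its arrays with the trend and adds no separate evidence. For B96 against A95, again 0 members and 0.0% of all rows passed, with 15 members higher and 1 lower at an unadjusted p under 0.05, where 1.38% and 0.904% of all rows were. The median difference of 0.155 was 0.335 without B96 rep1 and -0.03 without B96 rep2.

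Other members with known roles had narrower ranges. ZNF274, which recruits SETDB1 to the 3′ ends of zinc finger genes, was 8.09 and 8.57 in primary, 7.88 to 8.54 in the A arrays, and 8.21 and 8.25 in B96, with a slope of -0.04 ± 0.036 (SE). ZNF331, an imprinted gene, stayed between 7.72 and 8.49 on the 14 arrays, with both arrays of the late pair, at 7.76 and 7.72, below the others. ZNF417 and ZNF587, repressors of human endogenous retroviruses, had slopes of -0.08 ± 0.024 and -0.09 ± 0.044, and both were highest on B96 rep2, at 8.35 and 8.86. ZNF224, a repressor of the aldolase A gene, was 8.03 to 8.58 up to A67 rep2, 7.66 and 7.68 in A95 and 7.89 and 8.10 in B96. Of 2 further members methylated in tumours, ZNF577 lay between 6.44 and 7.47 and ZNF677 between 6.27 and 7.51 on the 14 arrays. The slopes of ZNF274, ZNF331, ZNF417, ZNF587 and ZNF224 did not pass the threshold by limma, with adjusted p-values of 0.559, 0.944, 0.142, 0.282 and 0.137 in the order named.

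Members with the most positive slopes after ZNF671 and ZNF441 were ZNF649, ZNF444, ZNF324 and ZNF114. ZNF649 was 8.24 to 9.0 up to A95 rep1, 9.58 and 9.31 on the late pair, and 8.56 on B96 rep2. ZNF324 was 7.84 to 8.31 on 13 arrays and 9.0 on A95 rep2. ZNF428 had no steady slope but was 9.01 and 8.85 on the late pair against 7.61 to 8.41 elsewhere. A95 rep2 held the highest value of ZNF649, ZNF444, ZNF324, ZNF114 and ZNF428 alike, and 0 of them were called.

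The machinery through which KRAB proteins act was measured beside them, as 28 corepressor, heterochromatin and DNA methylation genes that include ZNF274. In the trend 11 had negative and 17 positive slopes, with a median of 0.009, against 0.01 in all genes. At an unadjusted p under 0.05 by limma, 2 were lower and 6 higher, where 8.83% and 9.89% of all rows were. After adjustment 0 were called, where 0.281% of all rows were. None was called in the 4 contrasts either. TRIM28, the KRAB corepressor, stayed between 11.77 and 12 on all 14 arrays, and SETDB1, the histone methyltransferase it recruits, between 8.21 and 8.52. The widest ranges were those of UHRF1 (8.99 to 10.92), which brings the maintenance methyltransferase to replicated DNA, SUV39H1 (7.47 to 9.02) and DNMT1 (9.51 to 10.92), that methyltransferase. The ZNF members stood above their means from primary rep1 to A58 rep1 and on B96 rep2. From A39 rep2 to A58 rep1, UHRF1 was 8.99 to 9.25 and DNMT1 9.51 to 9.90. On all other arrays, both primary arrays, A39 rep1 and B96 rep2 included, UHRF1 was at least 9.90 and DNMT1 at least 10.17. SUV39H1 was 8.60 and 8.22 in primary and 8.22 on A39 rep1. It was 7.47 to 7.74 from A39 rep2 to A58 rep1 and 8.38 to 9.02 from A58 rep2 on. Their part in the members' values was not tested.

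On the late pair, 8 of the 28 lay below all other arrays and 4 above, where 12.7% and 14.6% of all genes did. Small gaps were enough to be counted: TRIM28, among the 8, was 11.77 on both arrays of the pair against 11.79 to 12 elsewhere. TASOR and PPHLN1, subunits of the HUSH silencing complex named here after their values were seen, had the clearest gaps. TASOR was 8.62 and 8.75 on the pair and 9.43 to 9.92 on the other 12 arrays, and PPHLN1 was 9.25 and 9.36 against 10.07 to 10.30. MPHOSPH8, the third subunit, was 8.68 and 8.87, inside its range of 8.68 to 9.15 elsewhere. The 4 genes above all other arrays were MORC2, MBD2, MTA2 and UHRF1. MORC2, also named after its values were seen, was 9.89 and 9.85 on the pair and 9.26 to 9.46 on the other 12 arrays. Whether these levels relate to those of ZNF671, ZNF441 or ZNF808 was not tested.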

How the data were processed

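RNA of 14 WI-38 samples was measured on Affymetrix Gene 1.0 ST arrays. The authors deposited 1 table of 28869 rows of log2 values. The log base was read from their range, and how the authors summarised and normalized the arrays is not stated in the sources used here. The medians of the arrays were 7.26 to 7.48, 3 to 20 values per array were 0, and 0 of these were in members. No detection calls or background signals were used, so the number of arrays limits the precision, and dim rows may not respond.

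Rows were named from the platform annotation, updated by gene ID to RefSeq, which also gave chromosome and order. Of the rows, 19310 had 1 symbol, 19279 of them matched, 1752 had several and 7807 none. The 41 rows with a ZNF symbol among several were left out. Many members are close paralogs, and how far a probe of one detects another is unknown.

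Group means of all 14 arrays (7 residual degrees of freedom) and a slope over the 10 A arrays (8) were fitted with limma 3.58.1 in R 4.3.3, two-sided, with Benjamini-Hochberg adjustment over all rows at 0.05. Fits were tested on simulated data. Named members have the 12 most negative or 6 most positive slopes, calls, the 3 largest differences each way per contrast without overlap, the 6 largest ranges, the 6 largest late-pair differences each way, or a known role. The members and lists were chosen with earlier results of these data known. A grouping by protein domains was not run, and cytobands were not used.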

Additional observations from a re-analysis of the deposited data

How the results depend on the processing

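The fits were repeated without each array, on passages 39 to 67, with a block for the replicate number, after quantile normalization or centring of each array, with dim rows below the 30th percentile removed (196 members left), with each gene on 1 row, and with a robust prior that follows intensity. Slopes of the 45 named members were refitted 752 times in all, and 617 stayed on the same side of the threshold, 97 lost a call, 19 gained one, 19 changed sign where the main fit made no call, and 0 called slopes changed sign. The 10 members called in the trend became 20 with quantile normalization, 33 with centring, 25 with the filter, 21 with 1 row per gene, 15 with the robust prior and 0 on passages 39 to 67, while calls among all rows went from 81 to 159, 429, 271, 176, 132 and 0. The 10 were among those called with quantile normalization, centring and 1 row per gene, and 9 of them with the filter, but only 7 without A67 rep2 or with the replicate block. The median slope of -0.0604 became -0.067 with quantile normalization, -0.072 with centring, -0.0558 with the filter and -0.0838 on passages 39 to 67. Centring moved the all-gene median deviation of A67 rep2 from -0.068 to 0.064. The spread of the members' median between its lowest and highest array was 0.384, 0.557 with quantile normalization and 0.555 with centring. The median of B96 minus primary became -0.305 with centring. With 1 array left out, where the lone array of a label is assumed to vary like the other groups, trend calls ranged from 0 to 28 members (0 to 571 over all rows) and the members' median slope from -0.0695 to -0.0509, the median of B96 minus A95 from -0.03 to 0.335, and that of B96 minus primary from -0.335 to 0.0. With the replicate number as a block, 8 members were called in the trend (74 rows), with ZNF329, ZNF461 and ZNF468 lost and ZNF91 gained, and 0 in the contrasts. Deviations of arrays with the same number correlated from -0.529 to 0.196 over 21 pairs of labels, so the numbers do not pair the samples. With 2 arrays a label, the contrasts resolve only changes that are large beside the scatter within labels.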

Other observations

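Zinc finger genes of chromosome 19 whose symbols do not begin with ZNF and a digit were measured as well, and 16 such genes (ZBTB, ZFP, ZIK, ZIM and ZSCAN symbols) had 10 negative slopes and a median slope of -0.004. ZFP14, a KRAB zinc finger gene, had the most negative slope of the 16, at -0.25 per 10 passages, and was 6.23 on primary rep2, 6.48 on A39 rep1, 4.67 on A67 rep2, 4.52 on A95 rep2, 5.08 on B96 rep1 and 6.26 on B96 rep2. ZSCAN18, reported as methylated in tumours, was 6.79 and 6.82 on A95 rep2 and B96 rep1 and 7.02 to 7.76 on the other 12 arrays. ZIK1 stayed between 7.72 and 8.43. ZFP36, an RNA-binding zinc finger protein that responds to growth factors, had the widest range of the 16, from 7.78 on primary rep1 to 9.83 on A39 rep2. These genes were named after their values were seen and no test was made.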
